A study of Mus musculus with 12 samples.

Results

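The glutathione S-transferases (GSTs) of the alpha, mu, pi and omega classes were examined in cultured mouse kidney epithelial cells. Members were the entries of the 4 deposited expression tables whose gene symbol is Gsta, Gstm, Gstp or Gsto followed by a number, and 15 of the 31026 entries in each table met this rule: 4 of the alpha class, 7 of the mu class, 2 of the pi class and 2 of the omega class. The family was selected on its FPKM values and ratios in these same comparisons, chiefly its high levels in suspended cells. The calls given for its members therefore describe them and do not test them. RNA was sequenced from C57BL/6 cells in 4 groups of 3 samples each. JNK-deficient cells (Jnk1-/- Jnk2-/-, derived from Jnk1 flox/flox Jnk2-/- Rosa-CreER) and control cells (Rosa-CreER) were each either held in suspension for 4 hours or left attached as monolayers, a design that addressed what JNK does in anoikis, a form of cell death set off by loss of anchorage. Both genotypes carried Rosa-CreER, a tamoxifen-inducible Cre recombinase expressed from the ubiquitously active Rosa26 locus. The labels do not give the agent or time of its activation. They also leave unsaid whether samples within a group are separate animals or cultures, so the spread behind the deposited p-values may be technical. The tables give 1 FPKM value per group (fragments scaled to transcript length and library size) and nothing for single samples. Hence no SD can be given, and the depth is unknown.

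GSTs join the tripeptide glutathione to reactive, electron-poor molecules, including the aldehydes left by lipid peroxidation, and the conjugates are then pumped out of the cell and broken down. The alpha, mu and pi classes are cytosolic dimers that also bind hydrophobic ligands. In kidney, alpha GSTs are abundant in tubule epithelium, and their genes are known targets of the transcription factor NRF2, which acts through the antioxidant response element. The pi enzyme GSTP1 is known to bind JNK and restrain its activity, and a mu enzyme, GSTM1, binds the upstream kinase ASK1. Omega enzymes have a cysteine in place of the catalytic tyrosine or serine of the other classes and act as thiol transferases and dehydroascorbate reductases.

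Both knocked-out genes had less RNA in JNK-deficient cells, the direction that the genotype labels give, but RNA of neither was absent. Mapk8, which encodes JNK1, stood at 2.52 FPKM in suspended JNK-deficient and 10.9 FPKM in suspended control cells, and at 2.26 FPKM in attached JNK-deficient and 8.77 FPKM in attached control cells. Mapk9, which encodes JNK2, stood at 17.4 against 29.2 FPKM in suspended JNK-deficient and control cells and at 8.89 against 12.8 FPKM in attached JNK-deficient and control cells. The deposited values cover whole genes, and the floxed exons, which by the labels belong to Jnk1 alone, were not measured by themselves. Why Mapk9 RNA remained in cells labelled Jnk2-/- was not tested. The 9 kidney epithelial markers were all measured, at 12.4 to 652 FPKM in suspended and 70.7 to 1285 FPKM in attached JNK-deficient cells, and at 10.7 to 663 FPKM in suspended and 98.6 to 1481 FPKM in attached control cells. Of the 6 proximal tubule markers, Aqp1 was at 192 FPKM in suspended and 342 FPKM in attached JNK-deficient cells and at 45.7 FPKM in suspended and 119 FPKM in attached control cells, the other 5 were below 1 FPKM in every group, and Slc34a1 was listed at 0 throughout. FPKM values of a group shifted between its tables by up to 0.0895 (log2), so levels and ratios are compared within a table. Ratios throughout are log2 of suspended over attached or of JNK-deficient over control.

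The members sit in 4 gene clusters and 1 separate gene on mm10 (positions from GENCODE M21). Gsta4 (chr9:78182774-78209349, plus strand), Gsta1 (chr9:78230656-78242684, plus) and Gsta2 (chr9:78331018-78355788, minus) are neighbours, and Gsta3 (chr1:21240589-21265661, plus) lies apart. The 7 mu genes lie side by side between Gstm5 (chr3:107895821-107898686, plus) and Gstm4 (chr3:108040408-108044894, minus). Gstp1 (chr19:4035407-4037985, minus) and Gstp2 (chr19:4040285-4046023, minus) adjoin each other, as do Gsto1 (chr19:47854970-47864790, plus) and Gsto2 (chr19:47865534-47886324, plus).

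Several members are near-copies, which bears on how their reads could be told apart. The coding sequences were 98.1% identical between Gstp1 and Gstp2 and 97.6% identical between Gsta1 and Gsta2. Of the 50-base fragments of the Gstp2 transcript, 64.3% also occurred in transcripts of Gstp1, and 44.8% of those of Gsta2 occurred in Gsta1. The Gsta1 transcript shared 82.9% of its fragments with Gm3776, and the deposited tables join these symbols in 1 entry. Gsta3, Gsta4, Gstm4, Gstm5, Gstm7, Gsto1 and Gsto2 shared no 50-base fragment with any other gene, while Gstm1, Gstm2, Gstm3 and Gstm6 shared between 9.36% and 28.8% of theirs. Gsto1 and Gsto2 carry 1 common locus in the deposited tables, although their annotated genes do not overlap. How the authors' software divided reads between Gstp1 and Gstp2 or between Gsta1 and Gsta2 is not recorded, and values of single members of these pairs are uncertain. Sums over a class are given beside them; they depend less on that division, but are not independent of it, because each copy is scaled by its own length.

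**Figure D1:**
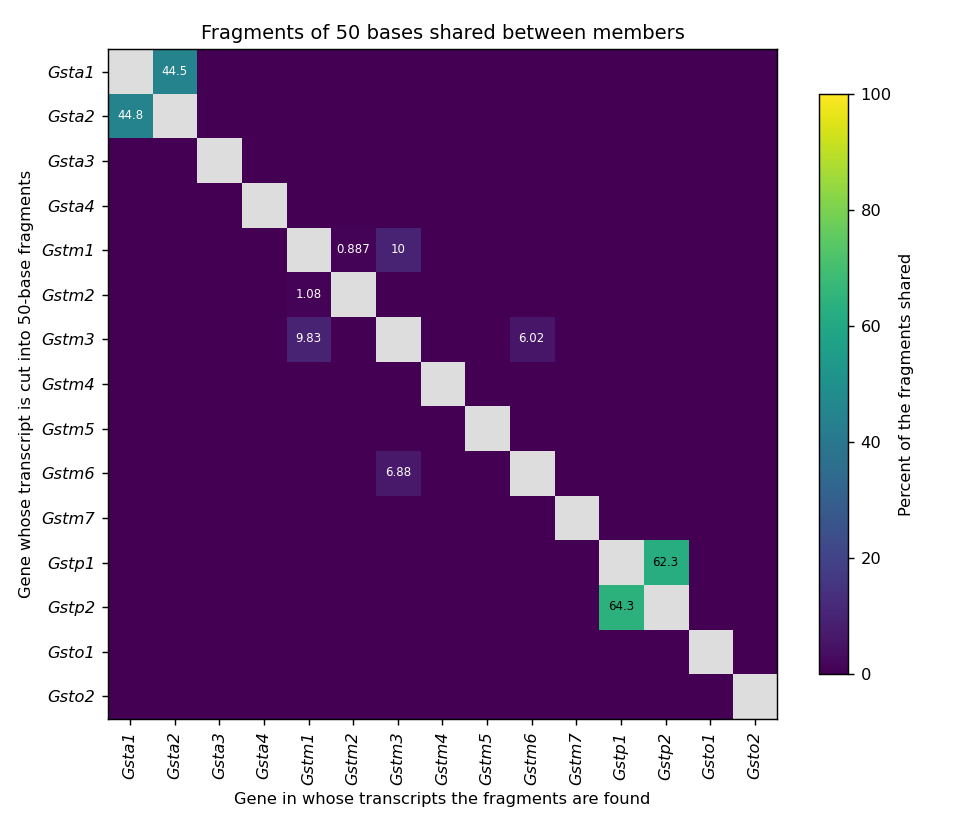
Percent of the 50-base fragments of each member's transcript (rows) that also occur in transcripts of another member (columns), from the GENCODE M21 annotation. The largest shares are those of Gstp1 with Gstp2, where 64.3% of the Gstp2 fragments are shared, and of Gsta1 with Gsta2, where 44.8% of the Gsta2 fragments are shared.

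Promoter windows of 300 bases (250 before to 50 after the start site) were taken from RefSeq on GRCm38.p6 for 14 of the 15 genes, Gsta4 being the member for which none was used. They were searched on both strands for the core of the antioxidant response element, TGACNNNGC, and for the AP-1 site TGANTCA, to which dimers containing the JNK substrate JUN bind. These motifs do not overlap in any window. The antioxidant core stood in windows of Gsta3, Gstm5 and Gstm7, 3 of 14 genes, while 14.0% of all 27025 genes with a window held it. The AP-1 letters stood in Gstp1, Gstp2 and Gstm5, also 3 of 14, while 8.97% of all genes held them. The first base of the AP-1 match lay 74 bases before the start site in Gstp1 and 89 bases before it in Gstp2, and the Gstp windows were 77.1% identical over the alignment. The pi pair is shown because its members share this promoter stretch and yet had unlike ratios, and Gsta3 and Gstm5 are shown as carriers of the antioxidant core. Capitals mark the motifs, and a match is a description of letters, not of a bound site. Sequence outside the windows and other spellings of the motifs were not searched, so a window without a match does not show that a gene lacks such elements.
Gstp1, chr19:4037863-4038162, minus strand: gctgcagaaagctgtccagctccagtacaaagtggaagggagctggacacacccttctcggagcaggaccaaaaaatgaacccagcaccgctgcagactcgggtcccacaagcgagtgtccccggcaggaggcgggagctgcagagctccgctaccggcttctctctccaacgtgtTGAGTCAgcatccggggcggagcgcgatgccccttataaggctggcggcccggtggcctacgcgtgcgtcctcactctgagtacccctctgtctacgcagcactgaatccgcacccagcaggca
Gstp2, chr19:4042172-4042471, minus strand: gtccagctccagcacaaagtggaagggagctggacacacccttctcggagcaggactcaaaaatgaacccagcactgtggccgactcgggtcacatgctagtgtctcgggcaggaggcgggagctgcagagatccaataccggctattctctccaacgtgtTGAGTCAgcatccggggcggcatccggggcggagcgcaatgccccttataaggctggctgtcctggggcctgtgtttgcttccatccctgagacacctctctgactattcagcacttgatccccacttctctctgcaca
Gsta3, chr1:21240335-21240634, plus strand: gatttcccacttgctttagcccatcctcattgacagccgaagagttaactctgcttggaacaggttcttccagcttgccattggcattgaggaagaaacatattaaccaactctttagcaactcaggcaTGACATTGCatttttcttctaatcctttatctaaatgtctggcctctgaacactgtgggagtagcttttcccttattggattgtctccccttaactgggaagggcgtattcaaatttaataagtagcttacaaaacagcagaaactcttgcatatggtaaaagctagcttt
Gstm5, chr3:107895604-107895903, plus strand: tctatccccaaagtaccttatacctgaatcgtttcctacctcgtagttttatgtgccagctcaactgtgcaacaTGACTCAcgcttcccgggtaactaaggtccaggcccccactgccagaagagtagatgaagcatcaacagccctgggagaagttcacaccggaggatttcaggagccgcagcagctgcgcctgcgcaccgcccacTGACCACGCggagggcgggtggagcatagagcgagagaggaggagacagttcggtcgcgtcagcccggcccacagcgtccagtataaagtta

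With suspension, the alpha genes, Gstp2 and Gsto1 had the large ratios of the family in both genotypes, and the abundant mu genes moved little. In JNK-deficient cells all 15 members were tested, 11 were called higher in suspended cells at q below 0.05 in the authors' deposited table and none was called lower. Of all 13136 genes tested there, 59.7% were called, 30.6% higher and 29.0% lower. The median ratio of the members was 0.91, beside 0.04 over all genes tested. In control cells 14 members were tested, 10 were called higher in the authors' deposited table and none was called lower. Over all 13386 genes tested, 65.1% were called, 33.0% higher and 32.1% lower. The median ratio of the tested members there was 1.49 (1.35 over all 15 members), beside 0.02 over all genes tested. Since suspension ratios of these genes led to the family being chosen, nothing is read from these shares. The p-values of the table went down to 5e-05 in steps, so many called members share the lowest q.

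The alpha class had the largest fold with suspension of the 4 class sums in both genotypes. Its summed level was 449 FPKM in suspended and 19.5 FPKM in attached JNK-deficient cells, 23.0-fold higher, and 285 FPKM in suspended and 16.3 FPKM in attached control cells, 17.6-fold higher. Gsta4, which conjugates 4-hydroxynonenal and related products of lipid peroxidation, accounted for most of each suspended sum. Gsta4 stood at 389.9 FPKM in suspended and 11.97 FPKM in attached JNK-deficient cells, a log2 ratio of 5.03 (q = 0.000144 in the authors' deposited table). In control cells Gsta4 stood at 242 FPKM suspended and 11.9 FPKM attached, a ratio of 4.35 (q = 0.000123 in the authors' deposited table). By FPKM, Gsta4 ranked 206 among the 31026 entries in suspended and 6551 in attached JNK-deficient cells, and 279 in suspended and 6792 in attached control cells. Both suspended values thus lay far above both attached values, which nearly coincided. Ratios of this size were uncommon: 88 genes (0.67% of those tested) in JNK-deficient and 123 genes (0.919%) in control cells were called higher by 16-fold or more. The family was chosen with these ratios known, so the shares place Gsta4 among all genes and lend it no support.

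Gsta3, known in mouse for conjugating the epoxide of aflatoxin, was called higher in suspended cells of both genotypes. Gsta3 stood at 45.8 FPKM in suspended and 7.04 FPKM in attached JNK-deficient cells, a log2 ratio of 2.70 (q = 0.000144 in the authors' deposited table). In control cells Gsta3 stood at 37.8 FPKM suspended and 4.12 FPKM attached, a ratio of 3.20 (q = 0.000123 in the authors' deposited table). Gsta1 and Gsta2 encode the classic inducible alpha subunits and were nearly silent in attached cells. The joint Gsta1 and Gm3776 entry stood at 5.40 FPKM in suspended and 0.33 FPKM in attached JNK-deficient cells (ratio 4.03, q = 0.000275 in the authors' deposited table), and at 2.17 FPKM suspended and 0.212 FPKM attached in control cells (3.36, q = 0.00386 in the authors' deposited table). Gsta2 stood at 7.60 FPKM in suspended and 0.164 FPKM in attached JNK-deficient cells (ratio 5.54, q = 0.0107 in the authors' deposited table). In control cells Gsta2 stood at 3.31 FPKM suspended and 0.032 FPKM attached, the highest member ratio at 6.69, but it was not called (q = 0.272 in the authors' deposited table). The Gsta2 ratios rest on attached values close to 0 and shrank to 2.89 in JNK-deficient and 2.06 in control cells when 1 FPKM was added to both values. Summed over the near-copies Gsta1 and Gsta2, the level was 13.0 FPKM in suspended and 0.493 FPKM in attached JNK-deficient cells, and 5.48 FPKM in suspended and 0.244 FPKM in attached control cells.

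**Figure D2:**
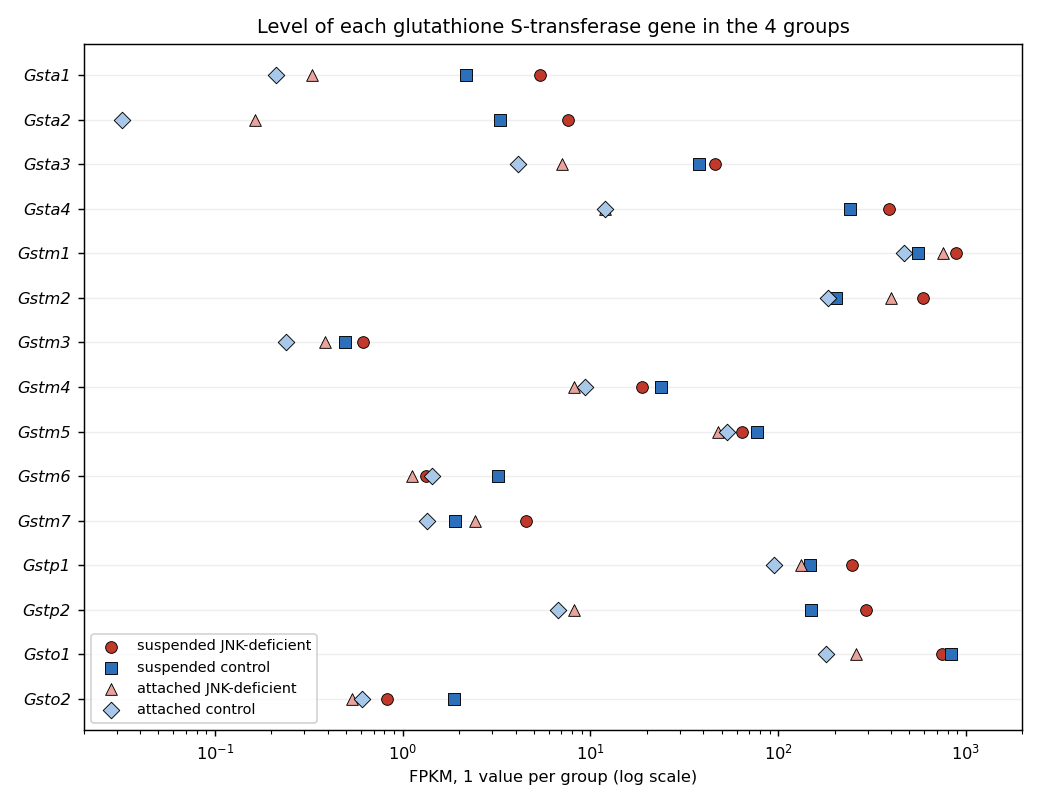
FPKM of each member (rows) on a log axis, with 1 symbol per group taken from the suspension tables, which were normalized separately, and no error bar because each group has a single deposited value. For Gsta4 the suspended groups stand at 389.9 and 242 FPKM and the attached groups at 11.97 and 11.9 FPKM, while the 4 values of Gstm1 lie between 465 and 881 FPKM.

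The pi genes had unlike ratios despite their near-identical coding sequences. Gstp1 and Gstp2 each encode a protein of the pi class, a class that is widespread in epithelia. Gstp2 stood at 292 FPKM in suspended and 8.15 FPKM in attached JNK-deficient cells (ratio 5.16, q = 0.000144 in the authors' deposited table), and at 149 FPKM in suspended and 6.70 FPKM in attached control cells (4.48, q = 0.000123 in the authors' deposited table). Gstp1 stood at 248 FPKM in suspended and 132 FPKM in attached JNK-deficient cells (ratio 0.91, q = 0.000144 in the authors' deposited table), and at 147 FPKM in suspended and 94.8 FPKM in attached control cells (0.63, q = 0.000123 in the authors' deposited table). Gstp2 made up 54.1% of the pi sum in suspended and 5.83% in attached JNK-deficient cells, and 50.3% in suspended and 6.60% in attached control cells. The pi sum was 539.9 FPKM in suspended and 139.8 FPKM in attached JNK-deficient cells, 3.86-fold higher. In control cells it was 296 FPKM suspended and 101.5 FPKM attached, 2.92-fold higher. The ratio of Gstp2 alone is thus larger than that of the class sum. The separate values of the copies are uncertain, and the sum is less so but not free of the division of reads, since FPKM scales each copy by its own length and 72.6% of the Gstp2 fragments occur in some other gene.

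Gsto1, the main omega enzyme, rose in both genotypes. It stood at 750.1 FPKM in suspended and 259.9 FPKM in attached JNK-deficient cells (ratio 1.53, q = 0.000144 in the authors' deposited table), and at 835 FPKM in suspended and 179.6 FPKM in attached control cells (2.22, q = 0.000123 in the authors' deposited table). Gsto1 was the most abundant member in suspended control cells, whereas Gstm1 was the most abundant in the other 3 groups. Gsto2, a dehydroascorbate reductase, stood between 0.536 and 1.89 FPKM in the suspension tables and was called in no comparison.

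The mu class held most of the family's RNA in attached cells and a smaller share in suspended cells. Its sum was 1559 FPKM in suspended and 1219 FPKM in attached JNK-deficient cells, 1.28-fold higher, which was 47.3% and 74.4% of the family sum in those cells. In control cells the mu sum was 866 FPKM suspended and 714 FPKM attached, 1.21-fold higher, or 37.9% and 70.6% of the family. Gstm1, the most abundant mu gene, stood at 881 FPKM in suspended and 759 FPKM in attached JNK-deficient cells (ratio 0.22, q = 0.0824 in the authors' deposited table, not called), and at 558 FPKM in suspended and 465 FPKM in attached control cells (0.26, q = 0.0214 in the authors' deposited table). Gstm2 stood at 587 FPKM in suspended and 400.1 FPKM in attached JNK-deficient cells (ratio 0.55, q = 0.000144 in the authors' deposited table), and at 202 FPKM in suspended and 183 FPKM in attached control cells (0.14, q = 0.228 in the authors' deposited table, not called). A call in 1 genotype and not in the other does not show that the genotypes differ, and the difference was not tested.

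Among the less abundant mu genes, Gstm4 was called higher with suspension in both genotypes. It stood at 18.9 FPKM in suspended and 8.13 FPKM in attached JNK-deficient cells (1.22), and at 23.8 FPKM in suspended and 9.32 FPKM in attached control cells (1.35). Gstm5, known in mouse for expression in brain and testis, stood at 64.4 FPKM in suspended and 48.1 FPKM in attached JNK-deficient cells (ratio 0.42, q = 0.0137 in the authors' deposited table). In control cells Gstm5 stood at 76.7 FPKM suspended and 53.4 FPKM attached (0.52, q = 0.00138 in the authors' deposited table). With the trend of ratios on GC content and transcript length subtracted, the Gstm5 ratio of JNK-deficient cells was 0.26 and no longer called. The same correction raised the Gstm1 ratio of JNK-deficient cells to 0.44, which was then called. Gstm7 stood at 4.56 FPKM in suspended and 2.43 FPKM in attached JNK-deficient cells (ratio 0.91, q = 0.00263 in the authors' deposited table), with 1.91 and 1.36 FPKM in suspended and attached control cells (0.49, q = 0.182 in the authors' deposited table). Gstm6 stood at 1.34 FPKM in suspended and 1.12 FPKM in attached JNK-deficient cells and was not called (0.26), and at 3.23 FPKM in suspended and 1.43 FPKM in attached control cells, where it was called (1.17, q = 0.00195 in the authors' deposited table). Gstm3 was below 1 FPKM in every group and was called in no comparison.

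Over the 4 classes together, GST RNA summed to 3298 FPKM in suspended and 1639 FPKM in attached JNK-deficient cells, 2.01-fold higher. In control cells the sum was 2284 FPKM suspended and 1012 FPKM attached, 2.26-fold higher. The alpha share of the family sum was 13.6% in suspended and 1.19% in attached JNK-deficient cells, and 12.5% in suspended and 1.61% in attached control cells. The omega share was 22.8% in suspended and 15.9% in attached JNK-deficient cells, and 36.6% in suspended and 17.8% in attached control cells. The gain in summed FPKM was thus spread over all classes in JNK-deficient cells, at 429 for alpha, 339 for mu, 400.1 for pi and 490.5 for omega. In control cells omega contributed 656, alpha 269, pi 195 and mu 151.5 FPKM.

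**Figure D3:**
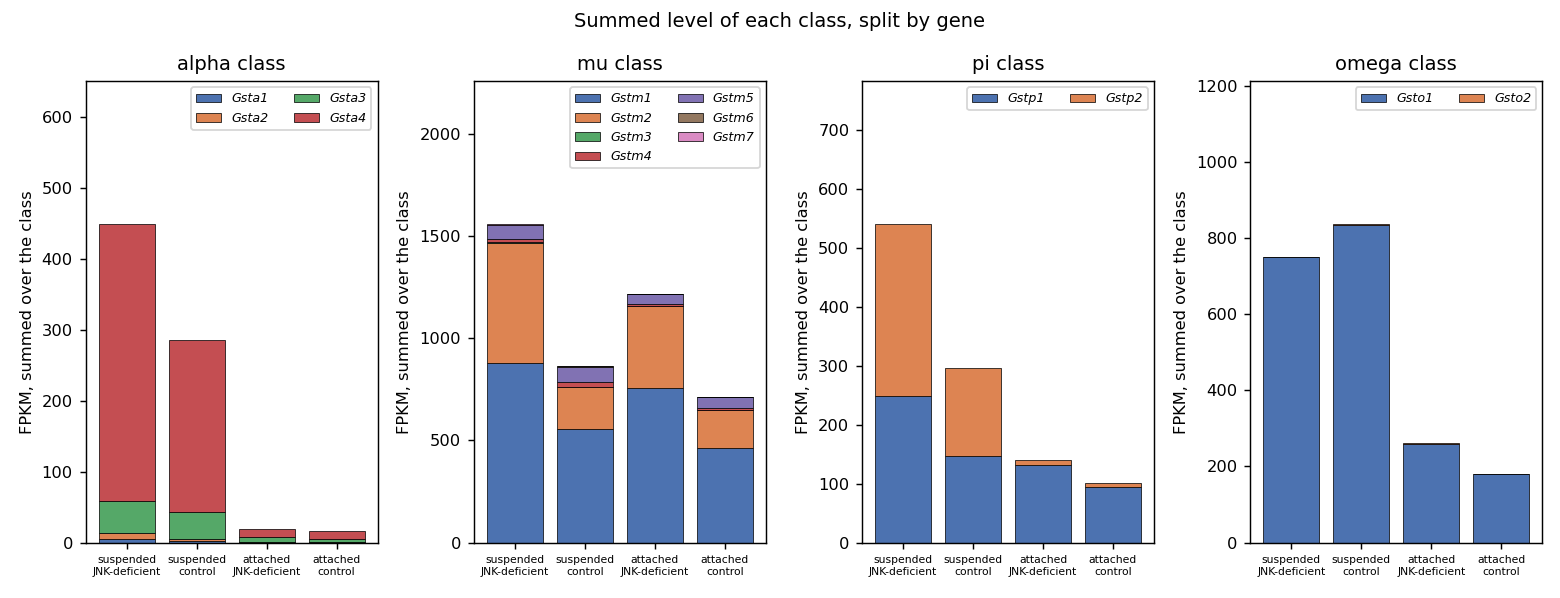
Summed FPKM of each class in the 4 groups, with bars from 0 split by gene and values from the suspension tables, which were normalized separately. The alpha bars are almost all Gsta4 and are near 0 in attached cells (19.5 and 16.3 FPKM), the pi bars of suspended cells are split about evenly between Gstp1 and Gstp2, and the mu bars differ more by genotype than by culture.

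Markers of other cells and states moved with the suspension contrast too. The summed level of the 9 kidney epithelial markers was 2568 FPKM in suspended and 4321 FPKM in attached JNK-deficient cells, where 7 of 9 were called lower and 1 higher, and 2550 FPKM in suspended and 4716 FPKM in attached control cells, where 8 of 9 were called lower and 1 higher. In bulk RNA, fewer cells of a type and less RNA per cell cannot be told apart. The 7 leukocyte marker entries summed to 78.3 FPKM in suspended and 77.9 FPKM in attached JNK-deficient cells, and to 70.9 FPKM in suspended and 55.7 FPKM in attached control cells. Of these, 3 were called higher (Ptprc, Csf1r and Cd68) and 1 lower (Cd14) in each genotype. The sums thus join changes in both directions. Ptprc stood at 10.7 FPKM in suspended and 1.05 FPKM in attached JNK-deficient cells. Csf1r stood at 7.97 and 1.47 FPKM, Cd68 at 30.8 and 14.0 FPKM and Cd14 at 28.4 and 61.3 FPKM in the same groups. Lyz2 and Itgam were below 1 FPKM in every group, and Emr1 was listed at 0 in both groups of JNK-deficient cells. The 6 fibroblast markers summed to 1.55 FPKM in suspended and 0.397 FPKM in attached JNK-deficient cells and to 3.29 FPKM in suspended and 0.318 FPKM in attached control cells, nearly all of it Pdgfra in suspended cells. The 5 endothelial markers summed to 1.38 FPKM in suspended and 0.143 FPKM in attached JNK-deficient cells and to 2.45 FPKM in suspended and 0.215 FPKM in attached control cells. The 3 muscle markers summed to less than 1 FPKM in every group. The part of these markers in the GST ratios was not tested.

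Between genotypes, the mu genes Gstm1 and Gstm2 and the pi genes were higher in JNK-deficient cells in both culture states. Among suspended cells 14 members were tested, 8 were called higher with JNK deficiency in the authors' deposited table and none was called lower. Over all 12795 genes tested, 12.5% were called, 5.57% higher and 6.93% lower. The median ratio of the tested members was 0.73 (0.71 with the untested member included), beside 0.01 over all genes tested. Among attached cells 13 members were tested, 7 were called higher with JNK deficiency in the authors' deposited table and none was called lower, while 28.8% of all 12960 genes tested were called, 14.7% higher and 14.1% lower. The median ratio of the tested members there was 0.56 (0.62 with the untested members included), beside 0.00 over all genes tested. The genotype tables were in view when the family was chosen, so these shares too are given without a reading.

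Some cell type markers also differed by genotype. The proximal tubule marker Aqp1 was called higher in JNK-deficient cells, at 202 against 46.4 FPKM in suspended JNK-deficient and control cells (2.12) and at 341 against 112 FPKM in attached JNK-deficient and control cells (1.61). The 9 kidney epithelial markers summed to 2703 FPKM in suspended JNK-deficient and 2591 FPKM in suspended control cells, with Cdh16 (0.53) called higher and Cdh1 (-0.51) called lower. In attached cells they summed to 4300 FPKM in JNK-deficient and 4432 FPKM in control cells, with 2 called higher, Cdh16 (0.56) and Pax2 (0.42), and 3 called lower, Cdh1 (-0.44), Krt19 (-0.39) and Krt8 (-0.28). The leukocyte entries summed to 82.5 FPKM in suspended JNK-deficient and 72.1 FPKM in suspended control cells, and to 77.5 FPKM in attached JNK-deficient and 52.4 FPKM in attached control cells. Of these, Csf1r was called higher in JNK-deficient cells in both states (1.09 suspended, 1.44 attached) and Cd14 in attached cells (0.74). The fibroblast, endothelial and muscle markers summed to less than 4 FPKM each in every group. Among them only Pdgfra was called by genotype, lower in suspended JNK-deficient cells (-1.025). The part of these markers in the genotype ratios of the GST genes was not tested.

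Gstm2 had the largest genotype ratio among members called in both culture states. Gstm2 stood at 618 FPKM in suspended JNK-deficient and 205 FPKM in suspended control cells (1.59, q = 0.00099 in the authors' deposited table), and at 398 FPKM in attached JNK-deficient and 172 FPKM in attached control cells (1.21, q = 0.000347 in the authors' deposited table). Gstm1 stood at 927 FPKM in suspended JNK-deficient and 566 FPKM in suspended control cells (0.71, q = 0.00099 in the authors' deposited table), and at 755 FPKM in attached JNK-deficient and 437 FPKM in attached control cells (0.79, q = 0.000347 in the authors' deposited table). In the levels set side by side from the suspension tables, both genes were higher in attached JNK-deficient than in suspended control cells, an order opposite to that of the alpha and pi genes. Gstm7 stood at 4.80 FPKM in suspended JNK-deficient and 1.94 FPKM in suspended control cells (1.31, q = 0.0169 in the authors' deposited table), and at 2.41 FPKM in attached JNK-deficient and 1.27 FPKM in attached control cells (0.92, q = 0.000347 in the authors' deposited table). The other mu genes were called in neither genotype table: Gstm4 had ratios of -0.28 suspended and -0.11 attached, Gstm5 of -0.20 and -0.07, Gstm6 of -1.22 and -0.28, and Gstm3, which was not tested in suspended cells, of 0.37 and 0.76.

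The pi genes were called higher in JNK-deficient cells in both states. Gstp1 stood at 261 FPKM in suspended JNK-deficient and 149 FPKM in suspended control cells (0.80), and at 131 FPKM in attached JNK-deficient and 89.1 FPKM in attached control cells (0.56). Gstp2 stood at 307 FPKM in suspended JNK-deficient and 151 FPKM in suspended control cells (1.02, q = 0.00099 in the authors' deposited table), and at 8.12 FPKM in attached JNK-deficient and 6.29 FPKM in attached control cells (0.37, q = 0.00811 in the authors' deposited table). The pi sum was 1.89-fold higher in suspended and 1.46-fold higher in attached JNK-deficient cells than in control cells of the same culture.

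All 4 alpha genes had genotype ratios above 0 in both culture states, and their calls varied; whether the ratios differ between the states was not tested. Gsta4 stood at 410.4 FPKM in suspended JNK-deficient and 246 FPKM in suspended control cells (0.74, q = 0.00099 in the authors' deposited table), and at 11.9 FPKM in attached JNK-deficient and 11.2 FPKM in attached control cells (0.09, q = 0.598 in the authors' deposited table, not called). Gsta3 stood at 48.5 FPKM in suspended JNK-deficient and 38.4 FPKM in suspended control cells (0.34, q = 0.177 in the authors' deposited table, not called), and at 7.01 FPKM in attached JNK-deficient and 3.87 FPKM in attached control cells (0.86, q = 0.000347 in the authors' deposited table). Gsta1 stood at 5.67 FPKM in suspended JNK-deficient and 2.20 FPKM in suspended control cells (1.36, q = 0.0446 in the authors' deposited table), and its call was lost with the GC and length trend subtracted (1.30). Gsta2 stood at 7.98 FPKM in suspended JNK-deficient and 3.35 FPKM in suspended control cells (1.25, q = 0.0186 in the authors' deposited table). Neither was tested by the authors in attached cells, where each lay below 0.4 FPKM in both genotypes, with ratios of 0.72 for Gsta1 and 2.44 for Gsta2.

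Gsto1, the abundant omega gene, stood at 792 FPKM in suspended JNK-deficient and 849 FPKM in suspended control cells (-0.10, q = 0.72 in the authors' deposited table), and at 259 FPKM in attached JNK-deficient and 169 FPKM in attached control cells (0.62, q = 0.000347 in the authors' deposited table). It was called in attached cells and not in suspended cells, and the difference between the states was not tested. The omega sum was 0.932 times the control sum in suspended JNK-deficient cells, while the alpha, mu and pi sums were 1.63, 1.87 and 1.89 times theirs. In attached JNK-deficient cells the sums stood at 1.27 (alpha), 1.81 (mu), 1.46 (pi) and 1.53 (omega) times those of attached control cells.

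**Figure D4:**
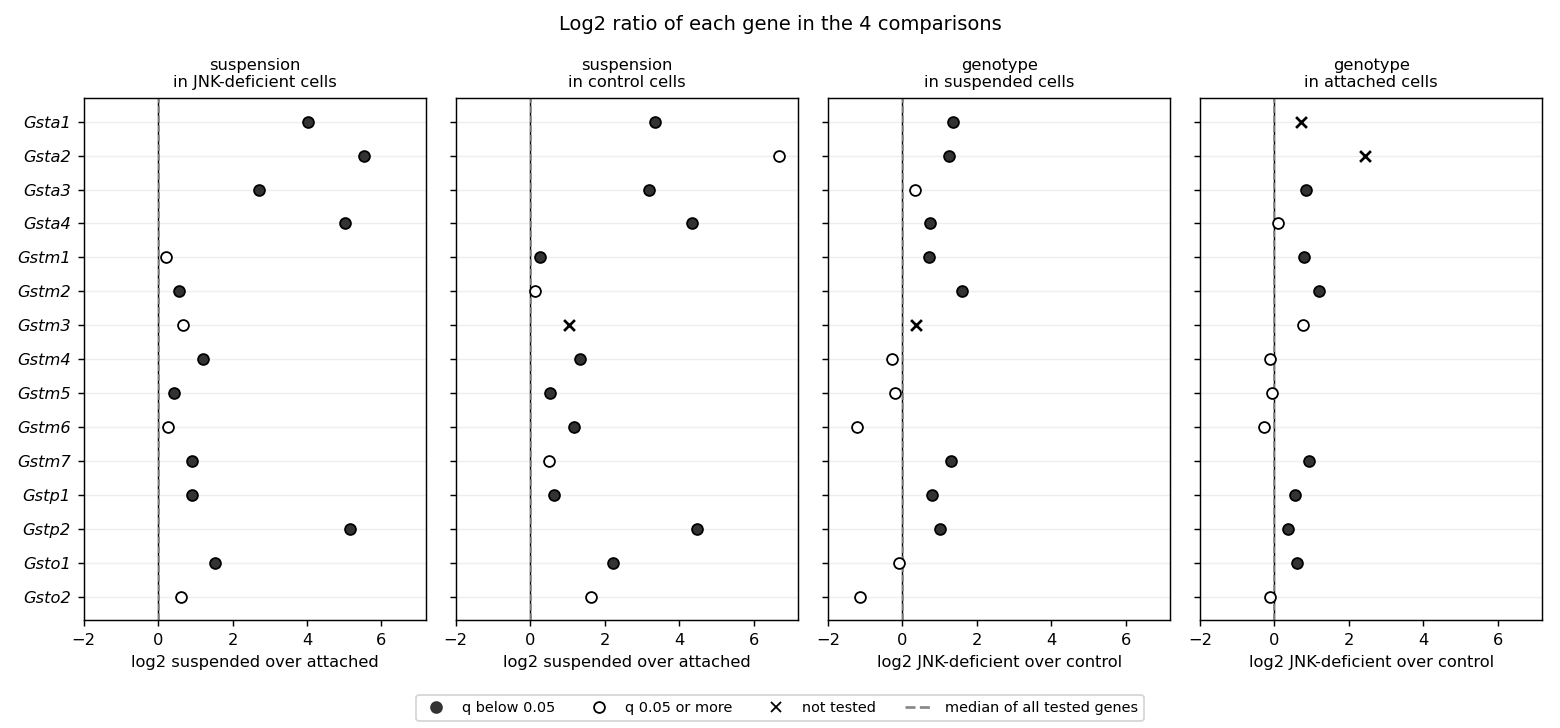
Log2 ratio of each member (rows) in the 4 comparisons (panels), with symbols that separate members called higher at q below 0.05 in the authors' deposited tables from those not called or not tested. In the suspension panels all 15 ratios are above 0 and reach 5.54 in JNK-deficient and 6.69 in control cells, while in the genotype panels they run from -1.22 to 1.59 suspended and from -0.28 to 2.44 attached.

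The suspension ratios of the genotypes are set side by side for the members; they come from separate tables that share no samples. The ratio in JNK-deficient cells minus that in control cells was 0.69 for Gstp2, 0.68 for Gsta4, 0.68 for Gsta1, 0.42 for Gstm7, 0.41 for Gstm2 and 0.28 for Gstp1. It was -0.05 for Gstm1, -0.10 for Gstm5, -0.14 for Gstm4, -0.49 for Gsta3, -0.69 for Gsto1 and -0.91 for Gstm6. For the low members Gstm3 and Gsto2, called in no comparison, it was -0.35 and -1.01. For Gsta2, whose attached levels were near 0, it was -1.15. These differences were not tested, because the members were chosen with all 4 ratios known and the tables hold no value per sample.

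**Figure D5:**
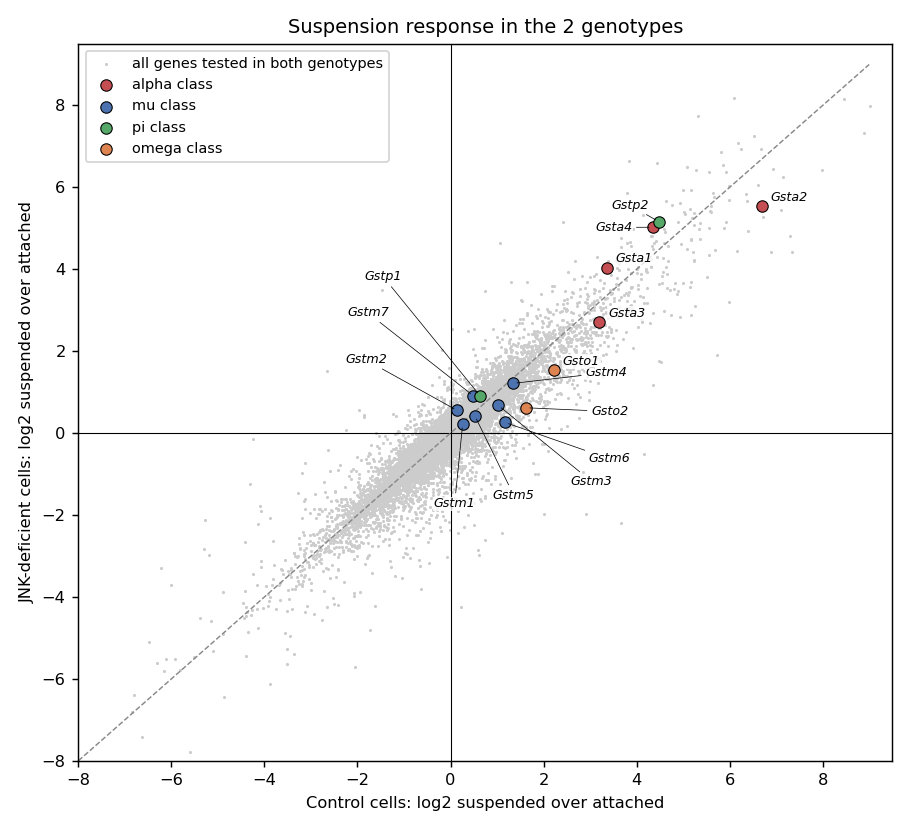
Log2 ratio of suspended over attached in JNK-deficient cells (vertical axis) against that in control cells (horizontal axis), with 1 point per member and a line of equal ratios. Gstp2 (5.16 and 4.48), Gsta4 (5.03 and 4.35) and Gsta1 (4.03 and 3.36) lie above the line, and Gsto1 (1.53 and 2.22), Gsta3 (2.70 and 3.20) and Gsta2 (5.54 and 6.69) below it.

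Some genes that supply glutathione had large suspension ratios as well. Of 7 genes of glutathione synthesis and cystine uptake, all tested, 4 were called higher and 2 lower with suspension in each genotype. The shares over all genes tested are those against which this and the following lists stand. With suspension they were 30.6% higher and 29.0% lower in JNK-deficient and 33.0% higher and 32.1% lower in control cells. By genotype they were 5.57% higher and 6.93% lower in suspended and 14.7% higher and 14.1% lower in attached cells. Gclc, the catalytic subunit of the rate-limiting enzyme of glutathione synthesis, stood at 1381 FPKM in suspended and 58.5 FPKM in attached JNK-deficient cells (4.56), and at 689 FPKM in suspended and 26.8 FPKM in attached control cells (4.69). Its modifier subunit Gclm had ratios of 2.49 in JNK-deficient and 2.19 in control cells, and the cystine transporter subunit Slc7a11 had 3.89 and 4.65 in those cells. The genes of the transsulfuration route to cysteine, Cbs (-1.16 in JNK-deficient, -1.27 in control cells) and Cth (-1.15 and -0.54), were the members called lower, and Slc3a2, the partner subunit of Slc7a11, was not called (-0.03 and 0.10). Cbs and Slc3a2 were chosen for naming after their values were seen. In JNK-deficient relative to control cells, 3 of the 7 were called higher in suspended and 6 in attached cells, and none lower. Gclc had genotype ratios of 1.06 suspended and 1.21 attached. The median ratio of this list was 2.04 with suspension in JNK-deficient and 1.55 in control cells, and 0.51 by genotype in suspended and 0.44 in attached cells; the medians over all genes tested, given above, lay between 0.00 and 0.04. All calls of genes in these lists are those of the authors' deposited tables.

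Of the other GST families, which include the membrane-bound and theta enzymes, 5 of 10 tested genes were called higher and 1 lower with suspension in JNK-deficient cells, and 6 of 11 higher and 2 lower in control cells. The microsomal genes Mgst1 and Mgst2 had ratios of 3.33 and 2.56 in JNK-deficient and of 2.59 and 2.33 in control cells. Hpgds, the sigma class enzyme that makes prostaglandin D2, stood at 4.45 FPKM in suspended and 0.132 FPKM in attached JNK-deficient cells (5.07), and at 3.77 FPKM in suspended and 0.0998 FPKM in attached control cells (5.24). The kappa gene Gstk1, chosen for naming after its values were seen, was called lower, at -1.12 in JNK-deficient and -0.64 in control cells. Between genotypes, Mgst1 (1.63 and 0.92) and Mgst2 (1.17 and 0.97) were called higher in JNK-deficient cells, suspended and attached, among 3 of 10 called higher and none lower in suspended and 4 of 9 higher and 1 lower in attached cells. The list's median ratio was 0.65 with suspension in JNK-deficient and 0.78 in control cells, and 0.18 by genotype in suspended and 0.12 in attached cells.

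Other phase 2 enzymes, which like many GST genes are known NRF2 targets, were called higher with suspension in 8 of 8 tested genes in each genotype. Srxn1, which reduces oxidized peroxiredoxins, had ratios of 5.62 in JNK-deficient and 4.94 in control cells, and Hmox1, which degrades haem, had 5.25 and 5.20. Between genotypes, 5 of 8 were called higher in suspended and 4 of 8 in attached JNK-deficient cells, and none lower, with Nqo1, a quinone reductase, at 1.46 suspended and 1.53 attached. The median ratio of these enzymes was 2.87 with suspension in JNK-deficient and 2.92 in control cells, and 0.53 by genotype in suspended and 0.39 in attached cells. Of the genes of glutathione recycling and peroxide use, 4 of 9 tested were called higher and 2 lower with suspension in JNK-deficient cells, and 4 higher and 3 lower in control cells. Txnrd1, a thioredoxin reductase, had ratios of 1.34 in JNK-deficient and 1.47 in control cells, and glutaredoxin Glrx had 2.02 and 1.29. Gpx3, a secreted glutathione peroxidase, was called lower in both genotypes (-1.86 in JNK-deficient, -0.55 in control cells), as was Gpx1, the cytosolic form (-1.31 and -1.36). Between genotypes, 3 of these 9 were called higher and 1 lower in suspended cells and 4 higher and 2 lower in attached cells. The called ratios largest in size were negative, those of Gpx3 in suspended (-1.785) and Glrx in attached cells (-0.78). Prdx6 was called higher in both states, at 0.79 suspended and 0.56 attached. The median ratio was 0.21 with suspension in JNK-deficient and 0.09 in control cells, and 0.31 by genotype in either culture state.

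Of the genes of conjugate export and glutathione breakdown, the shares called with suspension lay near or below those over all genes tested. With suspension, 3 of 11 tested were called higher and 3 lower in JNK-deficient cells, and 4 of 13 higher and 2 lower in control cells, beside 30.6% higher and 29.0% lower over all genes in JNK-deficient and 33.0% and 32.1% in control cells. Abcc1, which exports glutathione conjugates, had ratios of 1.04 in JNK-deficient and 1.02 in control cells. Chac1, which breaks down glutathione, had -2.08 and -1.36 in the same cells. In JNK-deficient relative to control cells, 2 of 11 were called higher and none lower in suspended cells. In attached cells 6 of 13 were called higher and 1 lower. Over all genes these shares were 5.57% higher and 6.93% lower in suspended and 14.7% higher and 14.1% lower in attached cells. Abcc1 was called higher in both states (0.48 suspended, 0.49 attached). The median ratio was 0.04 with suspension in JNK-deficient and 0.16 in control cells, and 0.09 by genotype in suspended and 0.27 in attached cells.

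Of the regulators of GST transcription, 4 of 13 tested were called higher and 5 lower with suspension in JNK-deficient cells and 5 of 12 higher and 4 lower in control cells, counts also near the shares over all genes. Bach1, a repressor at antioxidant response elements, had ratios of 1.92 in JNK-deficient and 1.93 in control cells, and Ahr, the aryl hydrocarbon receptor, had 1.23 and 1.57. Nfe2l2, which encodes NRF2, and Keap1, which encodes its inhibitor, were chosen for naming after their values were seen. Nfe2l2 had ratios of 0.58 in JNK-deficient and 0.62 in control cells, and Keap1 had -0.97 and -1.10, all called. In genotype, Nfe2l2 (0.06 suspended, 0.13 attached) and Keap1 (0.00 and -0.10) were not called. Jun stood at 1.39 FPKM in suspended JNK-deficient and 6.60 FPKM in suspended control cells (-2.25), and at 1.76 FPKM in attached JNK-deficient and 7.96 FPKM in attached control cells (-2.18), called lower in both. By genotype, 1 of 12 regulators was called higher and 2 lower in suspended cells, and 3 of 13 higher and 1 lower in attached cells. The median ratio of the regulators was -0.39 with suspension in JNK-deficient and 0.11 in control cells, and 0.02 by genotype in suspended and 0.05 in attached cells.

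Patterns most like that of a member were sought over the 4 ratios among 10090 other genes at 5 FPKM or more in some group, by Euclidean distance on the log2 scale. The 4 ratios share their groups and are not independent. For Gsta2, the member with the highest mean suspension ratio, the nearest was Serpina9 at a distance of 0.241, followed by 8430408G22Rik (1.60), Pmp22 (1.76), Mt1 (1.82) and Hmox1 (2.03). Gsta4 and Gstp2 were added after their values were seen, because the Gsta2 ratios rest on very low attached levels. The nearest to Gsta4 was Cbr3, a carbonyl reductase, at 0.381, followed by the iron exporter Slc40a1 (0.642), AK199650 (0.786), Srxn1 (0.88) and Fetub (0.902). Cbr3 (0.79), Slc40a1 (0.823), Srxn1 (0.932), Hmox1 (1.03) and AK199650 (1.05) were nearest to Gstp2.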

How the data were processed

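Messenger RNA of 12 samples was sequenced on an Illumina HiSeq instrument after column purification with a DNase step, per the labels' protocols. Reads were handled with TopHat, Bowtie, Cuffdiff and Cufflinks 1.0.3 on the build mm10, per the submitters' processing notes; no source used here gives the authors' annotation. The authors deposited 4 tables, 1 per pairwise comparison, each with 1 FPKM value per group and a p-value and q-value per entry. A Benjamini-Hochberg adjustment of the deposited p-values over the tested entries gave the deposited q-values to within rounding, and a call means q below 0.05.

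Log2 ratios were computed from the deposited FPKM values, without a pseudocount, in place of the deposited ratio column, parts of which hold spreadsheet errors. For the correction for GC content and length, a smooth trend was subtracted across all tested genes and a z-test was made with a standard error derived from the deposited p-value; it was tested on simulated data. Fragment sharing and coding identity came from GENCODE M21 transcripts, a choice made after the reference was seen, in place of protein alignment. Promoters came from RefSeq (GRCm38.p6). Python 3.11.15, pandas 2.3.3, scipy 1.17.1, scikit-learn 1.9.0 and Biopython 1.88 were used. Alternatives were another q threshold, a filter at 1 FPKM, joined symbols left out, GC and length correction, centring, pseudocounts and ratios across tables.

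Members and gene lists were chosen with earlier results of these data known. The naming rule gave all members, and for each list up to 3 called genes per comparison with the largest ratio at 1 FPKM or more, a selection of which is named; exceptions are stated.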

Additional observations from a re-analysis of the deposited data

How the results depend on the processing

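The tables hold no value per sample, so leaving out a sample was not possible and depth limits cannot be stated. No paired analysis was possible because the deposited columns hold pooled group values, although the sample titles carry replicate numbers. No direction reversed under any alternative run. With q below 0.01 instead of 0.05, 5 instead of 8 members were called in the genotype comparison of suspended cells, Gsta1, Gsta2 and Gstm7 losing the call, and 7.57% of all genes were called; the threshold's own construction lowers the count. The other counts of called members stayed within 1.5 times the main count under every alternative. Each tested member counts once per comparison in what follows, whether called or not. Of 56 such values, 6 lost their call at q below 0.01. Under correction for GC content and length, 2 of 55 lost a call and 1 gained one, the cause of which was not tested. The calls that could be lost numbered 11 with suspension in JNK-deficient and 10 in control cells. By genotype they numbered 8 in suspended and 7 in attached cells. Ratios correlated with transcript GC content across genes, which are not independent replicates (Spearman's rho -0.392 with suspension in JNK-deficient, -0.331 in control cells). Counted on the linear fold, 8 of 60 values moved by over 1.5 times with 1 FPKM added to both values, all of Gsta1, Gsta2, Gstm3 or Gsto2, and 3 did with 0.1 FPKM added, all of Gsta2. Centring and folds taken across the other tables moved none of the 60 linear folds by that much, although small log2 ratios shifted more in proportion (Gstm2 with suspension in control cells was 0.25 across the other tables and 0.14 within its table).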
